A study of Homo sapiens with 12 samples.

Results

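The response of DBTRG cells to Y15 was described from 4 of the 12 arrays of the series, the 2 arrays whose sample titles name DBTRG cells with 10 µM Y15 and the 2 that name untreated DBTRG cells. DBTRG is an established human glioblastoma cell line grown in culture. Y15 blocks the focal adhesion kinase FAK, the product of PTK2, and was given for 24 h. Cells labelled untreated received no agent that the labels name, and whether they received the solvent of Y15 is not stated. The other 8 arrays hold U87 cells, a second glioblastoma line, untreated or with Y15, temozolomide (an alkylating drug) or both agents, in 4 groups of 2. They entered here for the estimate of the spread between replicates, and 4 of them, U87 untreated and U87 with 10 µM Y15 for 24 h, as the experiment most like the one in DBTRG. Each line is a single model, and nothing in the labels says that replicates came from separate cultures. The spread behind each p-value is therefore that of these arrays and may be technical.

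FAK is a cytoplasmic tyrosine kinase that gathers at the sites where integrin receptors bind the extracellular matrix. It binds Src family kinases and passes adhesion signals to the MAPK cascade and to the actin cytoskeleton. In glioblastoma it is studied for its part in invasion and survival. Cells under amino acid shortage, unfolded protein or heme deficiency phosphorylate the initiation factor eIF2α, which slows bulk translation while the transcription factor ATF4 is made; that programme is called the integrated stress response (ISR).

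Total RNA was labelled and hybridised to Illumina bead arrays, which report 1 signal per probe in arbitrary units and a detection p-value against control beads. Of 47323 probes, 15001 and 15499 were detected (p-value under 0.01) in the untreated arrays and 15309 and 15934 in the arrays with Y15. After background correction and quantile normalization, 9922 genes with a probe detected in at least 2 of the 4 arrays were tested. Across genes, replicate arrays had a Pearson's r of 0.988 (untreated) and 0.984 (Y15). Their log2 differences had an SD of 0.289 and 0.337, against 0.202 and 0.247 for the same treatments in U87, so the fit of all 12 arrays can understate errors for DBTRG. Signals of single arrays are given below as deposited, and changes as log2 differences of normalized signals, Y15 minus untreated, ± SE with 2 arrays per group. A gene was called where the limma p-value adjusted by Benjamini-Hochberg over the 9922 genes was under 0.05. For a gene that no array of a group detected, the change is written as a lower bound ("at least"). In every called gene named below, both treated arrays lay on one side of both untreated arrays in normalized level.

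Markers were read to check the labelled cell type. VIM, CD44, SOX2, NES and FABP7 were detected in all 4 arrays, and the astrocyte genes GFAP, S100B, AQP4 and ALDH1L1 in none. Of 8 markers each of endothelium, of microglia and macrophages, and of epithelium, 5, 6 and 6 were detected in no DBTRG array, among them PTPRC, CDH5 and EPCAM. The endothelial markers TEK and ESAM were detected in both untreated arrays. The summed background-corrected signal of the endothelial markers was 125 and 124 untreated and 151 and 169 with Y15. The summed background-corrected signal of the microglia and macrophage markers was 217 and 159 in the untreated arrays and 479 and 415 with Y15, with CD68 and CD14 the detected members. The summed signal of the epithelial markers was 276 and 205 untreated and 467 and 418 with Y15, with the keratin genes KRT8 and KRT18 the detected members. Of 8 neuron markers 4 were detected in both untreated arrays (SNAP25, MAP2, ENO2 and GAD1), with summed signals of 1854 and 1314 untreated and 1717 and 1338 with Y15. Of the oligodendrocyte markers MBP was detected, and MOG, MAG, OLIG2 and SOX10 in no DBTRG array. No lymphocyte marker was detected in both arrays of either group. The part of these markers in other changes was not tested.

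Y15 changed the levels of 4429 genes, 44.6% of those tested, with 2238 higher (22.6%) and 2191 lower (22.1%). The fit of the 4 DBTRG arrays alone, which has 2 residual degrees of freedom, called 2848 of the same genes. The median change over all genes was 0.00. Large changes were mostly rises: 646 called genes rose and 408 fell at least 2-fold, 136 rose and 7 fell at least 4-fold, and 29 rose and 0 fell at least 8-fold. Part of that imbalance lay among genes that were dim in untreated cells. Of 3071 genes with an untreated level of at least 9 on the log2 scale, 68 rose and 138 fell at least 2-fold, and 8 rose and 3 fell at least 4-fold. Choosing genes by their untreated level favours falls over rises among them. Of the 1985 genes with the highest mean level over the 4 arrays, 357 were called higher and 435 lower, at any fold size. With no background correction the 4-fold counts over all genes tested were 36 and 0. The largest fall was that of MIX23, from 329 and 324 to 154 and 124 (7.17-fold, limma adjusted p = 1.16e-05, detected in 1 of 2 treated arrays). The plot of every gene tested shows that the called genes spread over the whole range of levels.

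**Figure D1:**
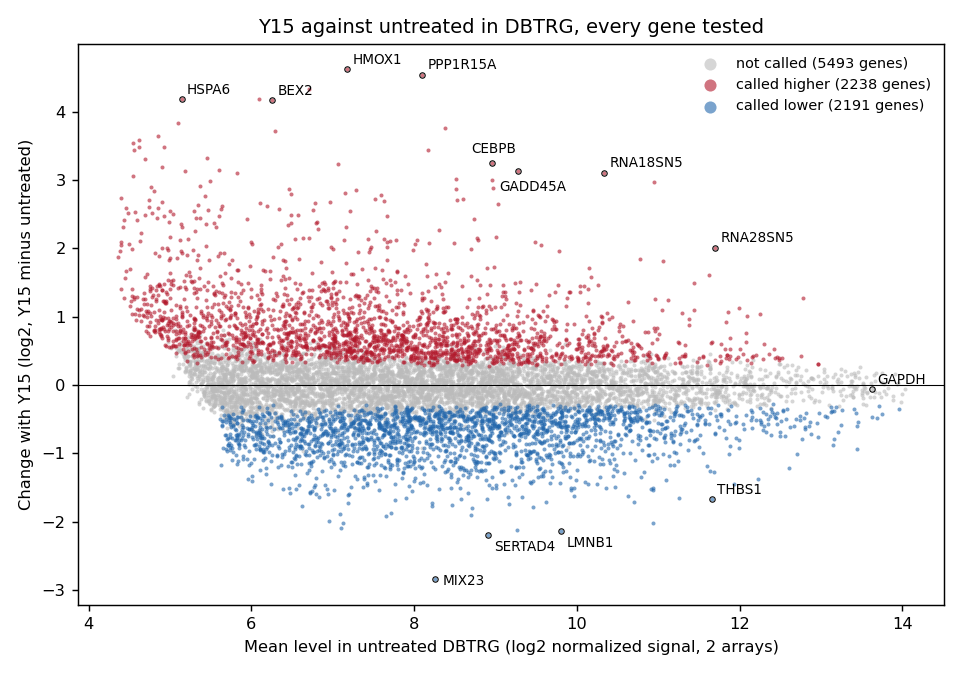
Change with Y15 (log2, vertical axis) of each of the 9922 genes tested against its mean level in the 2 untreated DBTRG arrays (log2 normalized signal, horizontal axis). Red points are the 2238 genes called higher, blue points the 2191 called lower and grey points those not called, and rises of over 2 on the log2 scale (136 genes) outnumber falls of that size (7).

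The targeted kinase changed little in its own messenger RNA. PTK2 signals were 1499 and 1259 in the untreated arrays and 1372 and 1237 with Y15, a change of -0.39 ± 0.12 (limma adjusted p = 0.0209) that did not pass in the fit of the 4 DBTRG arrays (adjusted p = 0.112). The deposited signals of both groups overlapped, and the groups parted only after normalization. A second, dimmer PTK2 probe, detected in 3 of the 4 arrays, gave -0.05 on the log2 scale. The call of PTK2 was also lost with array weights and with the probes of a gene averaged. An inhibitor of a kinase need not change the RNA of its gene, so these values do not check the treatment. The control genes GAPDH (-0.06 ± 0.11) and ACTB (-0.12 ± 0.10) did not pass the test. Of 27 measured genes of FAK, PYK2 and their direct signalling partners, 4 rose and 6 fell (3 and 3 in the fit of the 4 DBTRG arrays alone), below the shares of all genes for rises and about at them for falls. DOCK1, an exchange factor that activates Rac downstream of FAK, gave signals of 258 and 213 untreated and 158 and 167 with Y15, a fall of 2.64-fold (adjusted p = 8.52e-05). The kinase gene SRC rose by 0.53 ± 0.12, and RB1CC1, whose product FIP200 binds FAK and also starts autophagy, by 0.77 ± 0.15. EFS, a Cas-family docking protein, fell by 0.52 on the log2 scale.

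Many of the largest rises belonged to stress genes. Of 16 measured transcription factors and feedback genes of the ISR, 14 rose and 0 fell (median log2 change 2.45); 2 of the 16 passed the detection filter only through the arrays with Y15. PPP1R15A (GADD34), which directs the dephosphorylation of eIF2α, gave 349 and 262 untreated and 7278 and 5691 with Y15, a 23.3-fold rise (limma adjusted p = 4.28e-09), and the repressor ATF3 went from 188 and 158 to 2687 and 1654 (20.2-fold). CEBPB, a leucine zipper factor that pairs with ATF4 and CHOP, gave 542 and 422 untreated and 4607 and 4927 with Y15, a 9.48-fold rise (adjusted p = 9.11e-08). TRIB3, a pseudokinase that restrains ATF4 and AKT, went from 365 and 267 to 3063 and 3154 (10.9-fold), with both treated arrays nearly equal. STC2, a secreted glycoprotein, went from 457 and 335 to 3262 and 2020.1 (6.59-fold). DDIT4 (REDD1), which restrains the growth kinase mTORC1, rose 6.52-fold, and CEBPG, a partner of ATF4, 2.75-fold. For each of these genes both treated arrays lay above both untreated ones, as the plot of levels by array shows for CEBPB and TRIB3. The letters TGATGNAAT, 1 spelling of a composite element of C/EBP and ATF factors, stood in the promoters of 0 of 15 ISR genes with an entry and in 0.527% of tested genes. Only this spelling was counted, from 250 bases before to 50 after the start, so the counts do not show that these genes lack such an element.

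Genes that supply amino acids rose beside them. Of 15 measured enzymes of serine, one-carbon, asparagine, proline and cysteine synthesis, 10 rose and 3 fell. ASNS, which makes asparagine, gave 757 and 549 untreated and 3037 and 3015 with Y15 (4.26-fold, adjusted p = 6.36e-07). PCK2, the mitochondrial enzyme that makes phosphoenolpyruvate, went from 143 and 118 to 332 and 420.2 (5.96-fold, detected in 1 of 2 untreated arrays), and PSAT1 of the serine pathway from 1072 and 889.5 to 3701 and 3157 (2.98-fold). Among the folate enzymes of the list, the mitochondrial MTHFD2 rose by 1.06 ± 0.13 and SHMT2 by 0.69 ± 0.12, while the cytosolic SHMT1 (-0.80 ± 0.14) and MTHFD1 (-0.43 ± 0.15) fell and the mitochondrial MTHFD1L did not pass the test. The call of MTHFD1 was lost with the 4 DBTRG arrays alone (limma adjusted p = 0.122). Of 13 amino acid transporters, 7 rose and 1 fell (53.8% and 7.69%, against 22.6% and 22.1% of all genes tested). Among the 13, 3 passed the detection filter only through the arrays with Y15. SLC3A2 and SLC7A5, the chains of the leucine transporter LAT1, rose 7.39-fold (from 549 and 421 to 4154 and 3263) and 6.47-fold, and the glycine transporter SLC6A9 rose at least 3.03-fold. The letters TGATGNAAT stood in 0 of 11 transporter promoters and in 1 of 12 of the synthesis enzymes. The ASNS promoter holds TGATGAAAC, which differs in the last letter and was not counted, so these counts do not show absence of the element.

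Enzymes that charge transfer RNAs were counted by compartment. Of 18 cytosolic aminoacyl-tRNA synthetases, 10 rose and 0 fell (6 and 0 in the fit of the 4 DBTRG arrays alone), with a median of 0.44. WARS1, for tryptophan, went from 483 and 387 to 1785 and 2097, a 4.34-fold rise, followed by YARS1 (1.20 ± 0.11), SARS1 (1.15 ± 0.14) and GARS1 (1.12 ± 0.10). Of 16 mitochondrial ones, 0 rose and 3 fell (0 and 1 in the fit of the 4 DBTRG arrays alone), with a median of -0.10. IARS2, for isoleucine in mitochondria, fell from 2518 and 1815 to 1786 and 1529.7 (-0.69 ± 0.12). The difference between the families was not tested itself.

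HMOX1, which encodes the enzyme that opens the heme ring and frees its iron, had the largest rise of all genes tested in the main setting, closely followed by PPP1R15A. With median centring, an offset of 50, no background correction or the deposited log2 values PPP1R15A rose most, and the lowest HMOX1 value among these was 3.96 on the log2 scale. Its signals were 221 and 188 in the untreated arrays and 3853 and 3225 with Y15, a 24.6-fold change (adjusted p = 4.28e-09). Of 17 genes of heme and iron handling, 7 rose and 2 fell. FTL, the light chain of the iron store ferritin, went from 4227 and 2945 to 9332 and 8638 (1.01 ± 0.11), and BLVRB, which acts on a product of heme breakdown, rose by 1.10 ± 0.20. ALAS1, the first enzyme of heme synthesis, rose by 0.99 ± 0.20, CPOX (-0.63 ± 0.14) and ALAD (-0.50 ± 0.11) fell, and the later enzymes UROD and FECH did not pass the test. Of 21 glutathione and thioredoxin genes under NRF2, 9 rose and 1 fell, led by the drug exporter ABCC3 (from 187 and 174 to 426 and 529.7, 3.49-fold). The gene of NRF2 itself, NFE2L2, rose by 1.14 ± 0.14, the thioredoxin reductase TXNRD1 by 0.84 ± 0.11 and the quinone reductase NQO1 by 0.66 ± 0.12. The antioxidant element, written TGACNNNGC, stood in 35.3% of 17 promoters of the NRF2 list, in 13.3% of 15 of the heme and iron list and in 15.6% of tested genes. Of 6 aldo-keto reductases, which reduce reactive carbonyls, 5 rose and 0 fell, such as AKR1B10 (3.26-fold) and AKR1C3 (2.11-fold). Genes of the AKR1C subfamily are close in sequence, so their probes can share signal.

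Metallothioneins, small cysteine-rich proteins that bind zinc and copper, rose in all measured members but MT2A. Of 8 genes of metallothioneins and zinc export, 7 rose and 0 fell, with a median of 1.98, and 2 of them passed the filter only through Y15. MT1X went from 474 and 297 to 3476 and 2461 (8.06-fold, adjusted p = 1.71e-07) and MT1G from 236 and 229.9 to 1550.4 and 1024 (6.64-fold). MT1M, in no untreated array detected, rose at least 6.99-fold and MT1H at least 3.34-fold. SLC30A1, the zinc exporter of the plasma membrane, went from 162 and 148 to 412 and 345 (3.55-fold). MT2A was bright in every array (11686 and 8595 untreated, 11545 and 11556 with Y15) and gave -0.11 ± 0.11. The MT1X promoter is printed with its matches to TGCNCNC, the core of the metal response element that the zinc-sensing factor MTF1 binds, in capitals on either strand, of which it holds 4. The letters occurred in the promoters of 4 of the 4 metallothionein and zinc export genes with an entry, but also in 63.6% of the 8156 promoters of tested genes. All promoters shown are from RefSeq on GRCh38.p14, 250 bases before to 50 after the start, written 5′ to 3′ on the strand of the gene; this one lies at chr16:56682220-56682519, plus strand.
MT1X: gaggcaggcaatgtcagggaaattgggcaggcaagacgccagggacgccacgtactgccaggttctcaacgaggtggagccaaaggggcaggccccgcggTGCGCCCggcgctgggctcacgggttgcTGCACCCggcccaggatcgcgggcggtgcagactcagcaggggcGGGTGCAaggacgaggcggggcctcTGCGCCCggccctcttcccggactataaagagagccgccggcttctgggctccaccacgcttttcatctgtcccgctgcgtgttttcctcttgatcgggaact

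Heat shock genes did not move as a group. Of 24 heat shock chaperone genes, mostly cytosolic, 5 rose and 8 fell (3 and 5 in the fit of the 4 DBTRG arrays alone). The strictly inducible HSPA6 went from 129 and 106, detected in neither array, to 916 and 534, a rise of at least 14-fold (adjusted p = 3.09e-07). The constitutive HSPA8 fell from 8375 and 6965 to 6487 and 5449 (-0.68 ± 0.10), and HSPE1, the mitochondrial co-chaperone, from 5048 and 3703 to 3524 and 2967 (-0.72 ± 0.11). HSP90AA1 fell by 0.59 on the log2 scale and HSPA4 by 0.59, whereas the co-chaperone DNAJB2 rose by 1.31 ± 0.12. Of 22 chaperone and unfolded protein genes of the endoplasmic reticulum, 6 rose and 4 fell. These shares, 27.3% and 18.2%, were near the 22.6% and 22.1% of all genes tested. The BiP gene HSPA5 went from 1056 and 729 to 1838 and 1516 (0.67 ± 0.10), DNAJB9 rose by 1.38 ± 0.15 and the transcription factor XBP1 by 0.86 ± 0.13, while the folding factors PDIA6 (-0.78 ± 0.11) and CALR (-0.71 ± 0.13) fell. Paired heat shock units of the form GAANNTTC, which heat shock factor binds, stood in the promoters of 8 of 22 chaperone genes (36.4%) and 4.77% of all tested genes' promoters. Of those 8 chaperone genes 5 were called. Over all 389 tested genes with the letters, 22.6% were called higher and 24.7% lower, close to the shares of all genes. The HSPA6 promoter, at chr1:161524290-161524589, plus strand, has 2 matches, in capitals.
HSPA6: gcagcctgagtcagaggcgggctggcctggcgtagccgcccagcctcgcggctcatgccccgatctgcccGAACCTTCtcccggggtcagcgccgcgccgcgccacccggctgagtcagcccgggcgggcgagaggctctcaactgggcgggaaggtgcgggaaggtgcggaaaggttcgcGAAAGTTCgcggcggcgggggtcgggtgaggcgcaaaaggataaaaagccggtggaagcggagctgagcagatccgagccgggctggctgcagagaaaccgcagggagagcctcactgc

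Targets of the transcription factor p53 rose almost throughout. Of 25 measured, 21 rose and 0 fell (median 1.28). MDM2, the ligase that degrades p53, went from 165 and 133 to 555 and 486 (6.17-fold, adjusted p = 1.10e-05). GADD45A, which acts in growth arrest, went from 609 and 536 to 6011 and 4866, and PHLDA3, a restraint on AKT, from 508 and 337 to 1899 and 1486 (3.97-fold). GADD45A also answers to stresses other than p53, as do GDF15 and SESN2. The DNA damage recognition genes XPC (2.63-fold) and DDB2 (2.25-fold), the antioxidant SESN1 (3.85-fold) and TP53INP1 (4.31-fold) rose together with them. CDKN1A, the inhibitor of cyclin-dependent kinases, went from 6281 and 5157 to 16760.2 and 18537 (2.42-fold); with Y15 replicate 1 it was the brightest gene tested, at the end of the scale where bead signals can flatten. Cell death genes did not rise as a group. Of 20 death receptors and caspases, 5 rose (25%) and 3 fell (15%), against 22.6% and 22.1% of all genes tested. The receptors TNFRSF10B (1.26 ± 0.13), TNFRSF10A (1.13 ± 0.18) and FAS (1.01 ± 0.14) rose. Of 15 BCL2 family genes, 6 rose and 1 fell. They included the killer PMAIP1 (1.03 ± 0.16) and the protectors MCL1 (0.81 ± 0.13) and BCL2L1 (0.52 ± 0.10), which act in opposite ways.

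**Figure D2:**
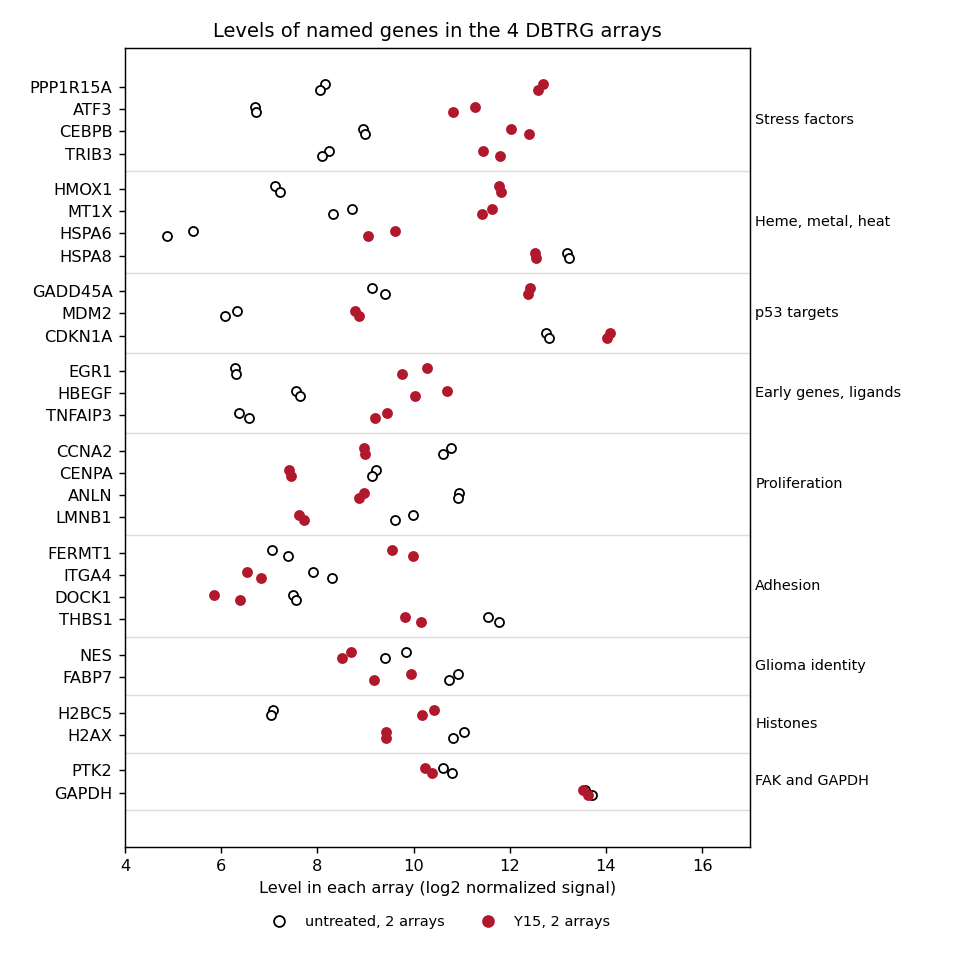
Level of 28 named genes in each of the 4 DBTRG arrays (log2 normalized signal, horizontal axis), grouped by role, with open circles for the 2 untreated arrays and red circles for the 2 with Y15. Treated and untreated arrays are apart in all rows but GAPDH, and those of PTK2 lie close together.

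Immediate early genes, which growth factors and stress switch on without new protein, were higher after 24 h. Of 16 EGR, KLF, IER and related genes, 15 rose and 0 fell (median 1.09; 3 passed only through Y15). EGR1 went from 163 and 140.3 to 1418 and 820.3 (13.2-fold, adjusted p = 1.30e-07), and ARC, detected in no untreated array, rose at least 6.01-fold. In the AP-1 family 6 of 10 rose, FOSB by at least 4.24-fold, FOS by at least 3.84-fold and JUNB from 141 and 120.0 to 330.3 and 241 (3.83-fold), and JUN and JUND did not pass the test. Of 18 phosphatases and Sprouty-type inhibitors that damp the MAPK cascade, 10 rose and 2 fell (6 and 1 in the fit of the 4 DBTRG arrays alone). DUSP1 rose 4.34-fold (from 355 and 244 to 1365 and 1016), DUSP5 2.66-fold and DUSP14 2.77-fold. Among 10 ligands and receptors of the EGF receptor family, 5 rose and 1 fell (3 and 1 in the fit of the 4 DBTRG arrays alone). The ligand HBEGF went from 265 and 219.7 to 1858 and 993 (6.85-fold) and EREG from 154 and 150.3 to 588 and 505 (5.94-fold). EGF, the 1 member called lower, fell from 276 and 266 to 199 and 177 (2.41-fold).

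Other receptor and ligand families were counted beside the shares of all genes tested, 22.6% higher and 22.1% lower. Among 7 ephrin receptors and ephrins 2 rose and 3 fell. Among 17 other receptor tyrosine kinases and ligands 7 rose and 1 fell. The Wnt list had 4 of 22 higher and 7 lower, and the Notch list 3 of 14 higher and 2 lower. The TGF-β and BMP list had 7 of 20 higher and 5 lower (3 and 4 in the fit of the 4 DBTRG arrays alone). Called members of either direction are named here. The ephrin receptor EPHA3 fell from 576 and 559.5 to 236 and 227 (4.34-fold, adjusted p = 3.33e-06) and EPHB4 by 0.76 on the log2 scale. EPHA2 went from 1128 and 942 to 2354 and 1971 (0.81 ± 0.19), and the ligand EFNB1 rose at least 3.55-fold. VEGFA, the endothelial growth factor, rose by 1.28 ± 0.20 and PDGFA at least 1.56-fold. In the Wnt pathway, SFRP1, a secreted antagonist, fell from 2843 and 2589.5 to 1688 and 1171 (-1.27 ± 0.20), the receptors FZD2 (-0.90 ± 0.17) and FZD1 (-0.67 ± 0.12) fell, and AXIN1, a scaffold of β-catenin breakdown, rose by 1.33 ± 0.13. In the TGF-β pathway, the receptor TGFBR2 (-0.98 ± 0.12) and the transducer SMAD3 (-0.88 ± 0.14) fell and the inhibitor SMAD7 rose (1.07 ± 0.21). HEY1 (1.14 ± 0.15) and HEY2 (at least 1.17-fold), targets of Notch, rose, while LFNG, a glycosyltransferase that modifies Notch, changed by -1.47 ± 0.15.

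Of 18 NF-κB subunits and feedback inhibitors, 11 rose and 0 fell. TNFAIP3 (A20), which ends NF-κB signalling, went from 167 and 151 to 828 and 588 (7.28-fold). The subunit gene NFKB2 rose by 1.29 ± 0.21 and the inhibitor NFKBIE by 1.49 ± 0.19, and RELA did not pass the test. The cytokines IL11 (1.57 ± 0.22) and LIF (1.31 ± 0.14) rose and the monocyte chemokine CCL2 fell (-0.96 ± 0.12). Interferon-stimulated genes moved both ways: of 24 measured, 10 rose and 4 fell (6 and 2 in the fit of the 4 DBTRG arrays alone). The transcription factor IRF1 went from 125 and 116, detected in neither array, to 306 and 315, at least 4.98-fold, and the exonuclease ISG20 from 135 and 112 to 392 and 381 (7.51-fold, 1 of 2 untreated arrays detected). The antiviral genes OAS3 (-1.32 ± 0.21) and IFIT1 (-1.04 ± 0.11) fell.

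Genes of DNA replication and cell division fell together. Of 58 measured genes of the mitotic checkpoint, condensin and centromere, 54 fell and 0 rose (median -1.13), and of 45 genes of G1/S and replication 36 fell and 2 rose (median -0.80). ANLN, which links actin and myosin in the cleavage furrow, went from 1864 and 1360.2 to 624 and 489 (4.03-fold lower, adjusted p = 1.63e-06). CCNA2, the S- and M-phase cyclin, went from 1679 and 1121 to 621 and 521 (3.29-fold lower), and MKI67, the proliferation marker, from 259 and 249 to 150.2 and 151 (3.66-fold lower). In this population of cells, fewer dividing cells and less of these RNAs per dividing cell cannot be told apart. Of 25 kinesin genes, 17 fell. The mitotic motors KIF14 (-1.71 ± 0.12), KIF4A (-1.64 ± 0.13), KIF11 (-1.51 ± 0.12) and KIF23 (-1.47 ± 0.12) changed most, and KIF13B was the single kinesin that rose (0.54 ± 0.18; adjusted p = 0.0289, and 0.0615 with the 4 DBTRG arrays alone). The transport kinesins KIF5B, KIF1C and KIF21A did not pass the test.

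Inside the replication list, the licensing helicase genes MCM2 to MCM7 all fell, by 0.56 (MCM3) to 1.16 (MCM6) on the log2 scale. The calls of MCM3 and MCM7 were lost with the 4 DBTRG arrays alone (limma adjusted p = 0.0560 and 0.0521). RRM2, the regulated subunit of ribonucleotide reductase, went from 1169.7 and 738 to 549 and 422 (2.67-fold lower). The 2 members that rose were E2F7, a repressor of E2F target genes, from 489 and 375 to 2088 and 1801 (4.46-fold higher, adjusted p = 8.83e-07), and the cyclin CCND2, from 226 and 201 to 522 and 411 (2.51-fold). The activator E2F1 (-1.46 ± 0.19) and the repressor E2F8 (at least 1.43-fold) fell. PCNA, the replication clamp, did not pass the test (0.19 ± 0.17). SKP2, which marks the inhibitor p27 for breakdown, fell 2.22-fold.

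Promoters of the mitotic genes held a short element that was rare in those of the replication genes, a difference that was not tested. The cell cycle homology region (CHR), written here as TTTGAA and searched on both strands, is bound by MuvB complexes, which hold these genes off outside G2 and mitosis and, with FOXM1, help to turn them on. It stood in the promoters of 32 of 49 mitotic genes with an entry (65.3%), in 1 of 38 replication genes (2.63%) and in 9.91% of 8156 tested genes. CCAAT boxes, sites of NF-Y, stood in 69.4%, 52.6% and 38.2%. Read the other way, 133 of the 356 tested genes whose promoter held both elements were called lower (37.4%) and 54 higher (15.2%), against 22.5% and 22.1% of all tested genes with a promoter entry. Leaving out the mitotic list, 333 such genes had 33.3% lower and 16.2% higher. Those 333 still held division genes of other lists, such as KIF14, KIF4A, KIF11 and KIF23, so they do not show the pattern outside cell division. Inside the mitotic list the CHR did not mark the genes that fell, since 31 of 32 genes with it and 15 of 17 without it were called lower. The promoters of CENPA (the centromere histone, chr2:26785806-26786105, plus strand), ANLN (chr7:36389612-36389911, plus strand) and MKI67 (chr10:128126374-128126673, minus strand) are printed because these genes were among the 25 largest falls, with CHR and CCAAT letters on either strand in capitals. ANLN holds 2 CHR matches side by side and no CCAAT, and in MKI67 1 of the CHR matches overlaps a CCAAT match by 1 letter.
CENPA: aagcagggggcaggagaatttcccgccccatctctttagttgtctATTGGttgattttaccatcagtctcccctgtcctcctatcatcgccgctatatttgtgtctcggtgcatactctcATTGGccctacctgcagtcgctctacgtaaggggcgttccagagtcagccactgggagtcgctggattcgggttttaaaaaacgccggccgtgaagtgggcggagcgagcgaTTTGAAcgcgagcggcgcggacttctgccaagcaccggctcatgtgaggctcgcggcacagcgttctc
ANLN: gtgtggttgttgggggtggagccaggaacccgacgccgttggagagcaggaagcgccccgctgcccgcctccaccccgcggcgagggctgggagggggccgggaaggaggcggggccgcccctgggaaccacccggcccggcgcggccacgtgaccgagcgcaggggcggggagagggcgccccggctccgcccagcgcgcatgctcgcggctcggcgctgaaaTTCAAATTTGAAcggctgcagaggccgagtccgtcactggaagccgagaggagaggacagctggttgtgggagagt
MKI67: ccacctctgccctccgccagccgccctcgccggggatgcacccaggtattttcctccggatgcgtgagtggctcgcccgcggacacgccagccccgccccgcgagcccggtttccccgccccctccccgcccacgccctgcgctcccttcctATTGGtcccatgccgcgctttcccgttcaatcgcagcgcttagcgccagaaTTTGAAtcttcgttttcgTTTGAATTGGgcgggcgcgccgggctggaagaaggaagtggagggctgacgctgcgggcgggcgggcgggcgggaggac

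**Figure D3:**
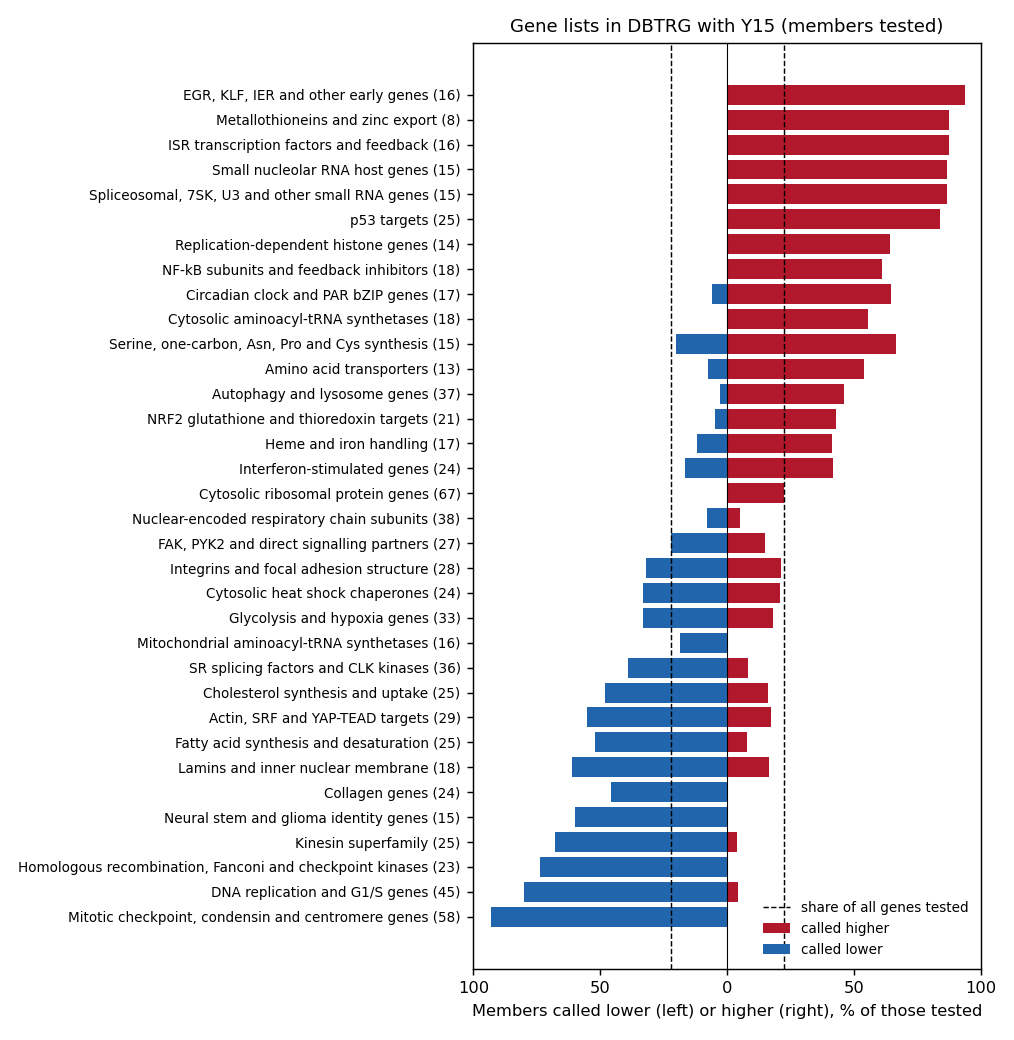
Share of the tested members of 34 gene lists called higher (red, to the right) or lower (blue, to the left) with Y15 in DBTRG, in % of the members tested, whose number follows each name. Dashed lines mark the shares over all genes tested, 22.6% higher and 22.1% lower; mitosis and replication extend furthest to the left, and early genes, metallothioneins and ISR factors furthest to the right.

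Most measured histone genes of the replication-dependent class rose, while most variants and chaperones fell. Of 14 measured replication-dependent histone genes, whose RNAs normally end without a poly(A) tail, 9 rose and 0 fell. The list has 57 genes on the array, and only these 14 were detected in at least 2 of the 4 DBTRG arrays. Among the 14, 1 passed that filter only through Y15. H2BC5 went from 217 and 176 to 1565 and 1082 (9.43-fold), H1-2 from 277 and 188 to 942 and 707 (4.40-fold) and H2AC18 rose 3.97-fold; copies of these genes are near-identical and their probes can share signal. Of 17 replication-independent variants and histone chaperones, 2 rose and 11 fell: H2AX, the variant phosphorylated at breaks, from 1981 and 1267 to 818 and 673 (2.83-fold), and H2AZ2 (-1.13 ± 0.18), with the histone chaperones NASP (-1.18 ± 0.17) and CHAF1A (-0.85 ± 0.14). In the same arrays the ribosomal RNA genes, which also lack a tail, were higher with Y15 (values below), and their part in the histone rise was not tested. At the nuclear envelope, LMNB1 fell from 1011 and 604 to 302 and 277 (4.40-fold, adjusted p = 5.09e-06), TMPO, which binds lamins, by 1.46 and the lamin B receptor LBR by 1.13 on the log2 scale. LMNA went the other way (0.50 ± 0.17; adjusted p = 0.0326), a call lost with the 4 DBTRG arrays alone (adjusted p = 0.0935). Of 23 genes of homologous recombination, the Fanconi pathway and checkpoint kinases, 17 fell and 0 rose, such as CHEK1 (from 851 and 538 to 479 and 333). Among other repair genes, MSH6 (-1.04 ± 0.13) and PARP1 (-0.88 ± 0.15) fell while the demethylase ALKBH3 rose (1.28 ± 0.14).

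Adhesion genes showed no common direction. Of 28 integrins and focal adhesion proteins, 6 rose and 9 fell. FERMT1 (kindlin-1), which activates integrins, went from 214 and 199 to 886 and 959, a 5.86-fold rise (adjusted p = 1.85e-06), while the integrin chains ITGA4 (from 313 and 294 to 195 and 192, 2.68-fold) and ITGAV (from 1833 and 1404 to 1110.3 and 947, 2.01-fold) fell. The actin crosslinker ACTN1 fell by 0.83 on the log2 scale and zyxin, ZYX, rose by 0.76 ± 0.13. Of 29 genes of actin, SRF and YAP-TEAD, 5 rose and 16 fell (3 and 7 in the fit of the 4 DBTRG arrays alone). TPM1 (tropomyosin) fell from 2915 and 2097 to 1905 and 1221 (limma adjusted p = 0.000167), CCN2, a secreted YAP target, from 8372 and 6446 to 5437 and 5225 (-0.79 ± 0.14), and YAP1 itself changed by -0.57 ± 0.11.

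Collagen genes were lower or did not pass the test, and other matrix genes split. Of 24 collagen genes and their modifying enzymes 11 fell and 0 rose. COL11A1 went from 696 and 579 to 343 and 349 (2.64-fold lower) and COL5A2 from 1128 and 976 to 477 and 646 (2.54-fold lower). Of 22 other matrix genes, 3 rose and 6 fell (1 and 5 in the fit of the 4 DBTRG arrays alone). THBS1, a matrix protein that activates TGF-β, fell from 2828 and 2488 to 1051 and 1068 (3.19-fold, adjusted p = 7.40e-06), and NID1 and LAMB1 of the basement membrane changed by -1.19 ± 0.24 and -0.98 ± 0.11. FBN2, a fibrillin, rose from 155 and 154 to 346 and 323 (3.01-fold), and the protease MMP10 at least 3.46-fold. CLDN1, a tight junction protein, went from 279.6 and 224 to 1193 and 1141 (5.54-fold).

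Genes of lipid synthesis were more often called lower than higher. Of 25 cholesterol genes, 4 rose and 12 fell (3 and 7 in the fit of the 4 DBTRG arrays alone). The synthesis enzymes ACAT2 (from 1318 and 1023 to 799 and 472, 2.53-fold) and DHCR7 (-0.85 ± 0.15) and the sensor INSIG1 (-1.22 ± 0.17) were among those lower. Those higher included NPC1, which moves cholesterol out of lysosomes (from 450.4 and 418 to 1203 and 1029.8, 2.42-fold), and the exporters ABCA1 (0.62 ± 0.11) and ABCG1 (at least 1.51-fold). Of 25 fatty acid genes, 2 rose and 13 fell; the elongase ELOVL6 fell 2.85-fold and the desaturase SCD5 2.55-fold. Of 33 genes of glycolysis and hypoxia, 6 rose and 11 fell (6 and 5 in the fit of the 4 DBTRG arrays alone). The glucose transporters parted: SLC2A3 went from 567 and 437 to 3466 and 3069 (6.29-fold), while SLC2A1 fell from 2606 and 2112 to 1631 and 1730.1 (1.73-fold; limma adjusted p = 0.00917, and 0.0717 without Y15 replicate 1). NDRG1, a hypoxia and stress gene, rose 7.25-fold although HIF1A, the hypoxia factor, fell by 0.84 on the log2 scale. Of 38 nuclear genes of respiratory chain subunits, 33 did not pass the test. Of 22 genes of the TCA cycle and mitochondrial enzymes, 1 rose and 7 fell (1 and 4 in the fit of the 4 DBTRG arrays alone). The NADP-dependent IDH1 was the one that rose, from 950.3 and 722 to 2651 and 2268 (2.58-fold). Among 37 genes of autophagy and lysosomes, 17 rose and 1 fell, the phosphoinositide-binding WIPI1 (1.42 ± 0.12) and the starting kinase ULK1 (0.96 ± 0.13) among them. Of 30 genes of polyamine and nucleotide metabolism, 4 rose and 9 fell. The polyamine breakdown genes SMOX (from 238 and 171 to 738 and 616, 4.37-fold) and SAT1 (2.58-fold) rose, and the nucleotide synthesis genes CTPS1 (-0.83 ± 0.11) and PAICS (-0.71 ± 0.10) fell.

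Messenger RNAs of cytosolic ribosomal proteins changed little, and the ribosomal RNAs a lot (values below). Of 67 cytosolic ribosomal protein genes 15 rose and 0 fell (7 and 0 in the fit of the 4 DBTRG arrays alone), with a median of 0.16, and RPL37 alone rose over 2-fold, from 203 and 155 to 700.3 and 568 (5.17-fold); a second RPL37 probe was detected in 1 of the 4 arrays and did not rise. Among 35 translation initiation and elongation factors, 9 rose and 4 fell (5 and 2 in the fit of the 4 DBTRG arrays alone). EIF4EBP1, which blocks cap binding, rose by 1.18 ± 0.19. Of 36 splicing factors and kinases, 3 rose and 14 fell (2 and 5 in the fit of the 4 DBTRG arrays alone), including HNRNPA2B1 (from 6220.1 and 4699 to 3586 and 3049.8, 2.01-fold) and HNRNPA1 (-1.10 ± 0.22). Small nucleolar RNA host genes, whose introns carry box C/D or H/ACA RNAs, rose in 13 of 15 cases and fell in 0. SNHG15 went from 396 and 283 to 1944 and 1237 (4.84-fold), EPB41L4A-AS1 from 468 and 376 to 2529 and 2091 (5.40-fold) and SNHG1 rose 3.27-fold. No source used here gives the strand that a probe reads, so EPB41L4A-AS1 may share signal with its antisense partner.

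Signals of ribosomal and spliceosomal RNAs, which normally carry no poly(A) tail, were higher with Y15 in DBTRG. Small nucleolar RNAs were called higher more often than lower. The 18S gene RNA18SN5 gave 990.2 and 1172 untreated and 12646 and 10268 with Y15 (8.62-fold), and the 28S gene RNA28SN5 gave 2608 and 2813 and 14744 and 13138 (4.04-fold). For these genes both treated arrays were close to each other and far above the untreated ones. Of 15 measured genes of spliceosomal, 7SK, U3 and other small RNAs, 13 rose and 0 fell, of which 6 passed the filter only through Y15. In most of these, replicate 1 of Y15 stood above replicate 2: 5S RNA5S9 gave 159.8 and 129 untreated and 2733 and 609 with Y15, U1 RNU1-1 184 and 168 and 1123 and 515, and U3 SNORD3A 139 and 113 and 1029 and 281. Of 53 tested snoRNA genes 22 rose and 4 fell (median 0.34), among the latter SNORD31 (-0.96 ± 0.23). The shares of all genes tested were 22.6% higher and 22.1% lower, and 12 of the 53 passed the filter only through Y15. Of the 12 tested snRNA genes, 11 had the higher signal in Y15 replicate 1. RN7SL1, the RNA of the signal recognition particle, did not pass the test (0.06 ± 0.11), nor did RNY3. Leaving the ribosomal and small RNA genes out of the fit, an alternative chosen after seeing the data, gave 2199 genes higher and 2183 lower; the part these RNAs play in changes of other genes was not tested.

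**Figure D4:**
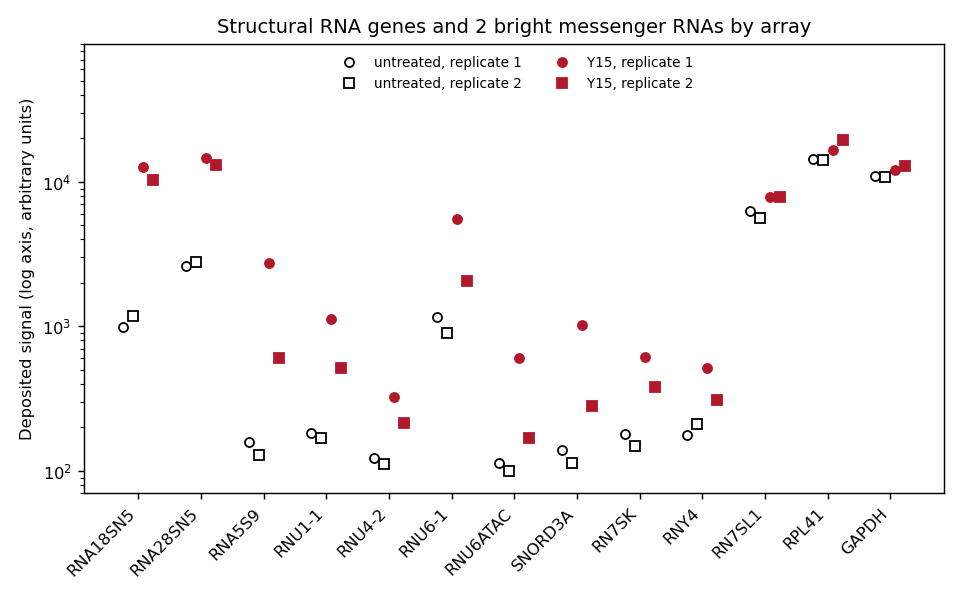
Deposited signal (arbitrary units, log axis) of 11 structural RNA genes and of the bright messenger RNAs RPL41 and GAPDH in each of the 4 DBTRG arrays, open symbols for untreated and red for Y15. The 18S and 28S genes are alike in both treated arrays, while most small RNAs are higher in Y15 replicate 1 (circles) than in replicate 2 (squares).

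Some groups outside stress and division moved as well. Of 17 circadian clock genes, 11 rose and 1 fell. BHLHE40 (DEC1), a repressor in the clock, went from 875 and 685 to 3409.6 and 3359.7 (3.91-fold), NFIL3 from 168 and 145 to 428 and 332 (3.52-fold), and the period gene PER2 from 204 and 174 to 418 and 355 (2.45-fold), while CLOCK, an activator, changed by -0.68 ± 0.15. Of 15 neural stem and glioma identity genes, 9 fell and 0 rose (median -0.65). The intermediate filament gene NES went from 925 and 536 to 529 and 402 (-1.02 ± 0.21), the fatty acid carrier FABP7 from 1818 and 1196 to 1126 and 577 (-1.27 ± 0.22) and the factor SOX9 from 1263 and 1035 to 784 and 855 (-0.83 ± 0.14). BEX2, an X-linked gene of the brain-expressed BEX family, went from 158 and 141 to 1542 and 1297 (18-fold), whereas its relative BEX1 did not pass the test. The brightest probe of BEX3 did not pass either, but other BEX3 probes were called in opposite directions (-0.49 and 0.48 on the log2 scale). PRKACA, the catalytic subunit of protein kinase A, fell at least 3.22-fold and the related PRKACB rose at least 1.48-fold, with no detected array in the untreated group (limma adjusted p = 0.0132, and up to 0.0811 with 1 array left out or weighted). Of the 20 tubulin isotypes and tubulin-binding genes, the β-tubulin TUBB (from 5557 and 4404 to 2940.5 and 2424, 2.31-fold) and the microtubule destabiliser STMN1 (-1.15 ± 0.19) fell most.

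Probes that switched between detected and undetected were counted from the deposited p-values. Such probes are dim in one group by construction, so the counts do not bear on the bright genes. With Y15 257 probes went from undetected (p-value over 0.05) in both untreated arrays to detected (under 0.01) in both treated ones, and 93 went the opposite way, while 13355 were detected in all 4. Probes that appeared included OSCAR, a collagen receptor of bone cells (from 103 and 99.5 to 344 and 403, at least 6.43-fold), the protease inhibitor SPINK1 (at least 5.98-fold), the Ras-related RRAD (at least 6.21-fold) and the repressor HES2 (at least 5.96-fold). FAM167A appeared with both of its probes, 1 of which gave 98.8 and 98.1 and 311 and 363. Probes that vanished included TMTC4 (from 209 and 169 to 128 and 119.9, at least 2.85-fold), the carboxypeptidase gene CPM (at least 2.26-fold) and SPTLC2, of sphingolipid synthesis (at least 2.03-fold). In U87, 14 of the 257 probes appeared and 8 of the 93 vanished by the same rule. Many of these probes could not switch there. Those of RRAD, ARC and FAM167A were already detected in both untreated U87 arrays, and that of CPM in neither. The U87 counts therefore do not measure how far U87 lacked these changes.

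The probe chosen for a gene decided the direction in a few cases. Of 809 genes with at least 2 called probes, 34 had probes called in opposite directions. For CSTF3, a cleavage factor of RNA 3′ ends, 3 probes fell by 0.86 to 1.14 on the log2 scale, and the other one rose by 1.36, from 455 and 323 to 1202 and 852. For TMEM97, a sterol-regulated membrane protein named after its values were seen, 1 probe fell from 1311 and 978 to 941 and 512 and the other rose from 372 and 304 to 905 and 756. Such genes have no single direction here.

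The response of DBTRG differed from that of U87 for 2251 genes (22.7%), 1402 (14.1%) more positive in DBTRG and 849 (8.56%) in U87, by a test of the difference itself in the same fit; without U87 untreated replicate 2 the count was 1465. Over the same 9922 genes, 2258 were called in U87 (22.8%). Of the calls in DBTRG 26.9% were called the same way in U87, and of the calls in U87 52.7% the same way in DBTRG; 133 genes rose in DBTRG but fell in U87, and 35 did the opposite. The lines share no arrays. List medians were higher in DBTRG for 41 and lower for 26 of 67 lists with at least 10 members tested, as the plot of both lines shows.

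The clock list held the highest share of called line differences among lists of at least 10 tested members. Of the 17 clock genes, 11 had a called difference towards DBTRG and 1 towards U87; PER2 changed by 1.29 ± 0.11 in DBTRG and -0.11 ± 0.11 in U87 (difference 1.40 ± 0.15, adjusted p = 0.000272). XPC gave 1.39 ± 0.13 and -0.11 ± 0.13 (difference 1.50 ± 0.18, adjusted p = 0.000406), and E2F7 2.16 ± 0.12 and -0.06 ± 0.12 (difference 2.22 ± 0.18, adjusted p = 5.14e-05). CEBPB rose in DBTRG and gave 0.32 ± 0.13 in U87 (difference 2.93 ± 0.18, adjusted p = 1.64e-05), while ATF3 rose in both lines. Of 58 mitotic genes, 31 fell further in DBTRG by this test, and 38 fell in U87. CCN2 went in opposite directions, -0.79 ± 0.14 in DBTRG and 1.03 ± 0.14 in U87 (difference -1.82 ± 0.20, adjusted p = 0.000251), as did HSPA5, 0.67 ± 0.10 and -0.71 ± 0.10 (difference 1.38 ± 0.14, adjusted p = 0.000201). For ASNS the difference did not pass the test (2.09 ± 0.12 and 1.93 ± 0.12, difference 0.16 ± 0.16, adjusted p = 0.521), which does not show that they changed equally.

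**Figure D5:**
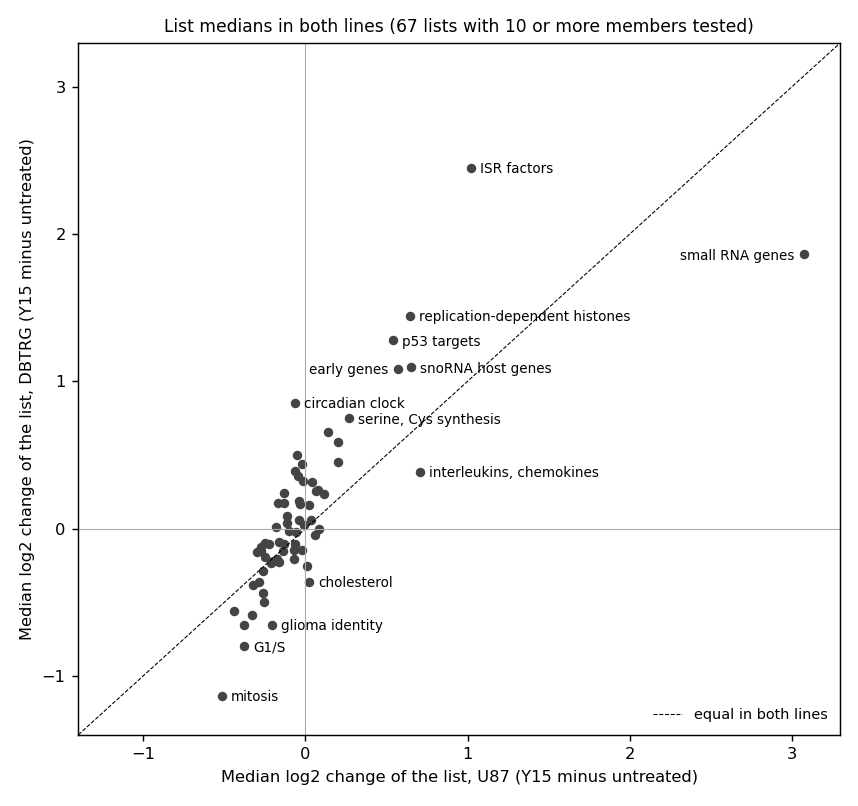
Median log2 change with Y15 of 67 gene lists with at least 10 members tested, in U87 (horizontal axis) and in DBTRG (vertical axis), each point a list and the dashed line equal medians. The circadian list lies at 0.86 in DBTRG and -0.07 in U87, and the small RNA list at 1.86 and 3.07.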

How the data were processed

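Signals of 12 Illumina bead arrays were used, of which the 4 of DBTRG carry the results. The deposited table gives per probe a signal intensity in arbitrary units, not yet normalized, and a detection p-value, made with GenomeStudio per the submitters' processing notes; the authors also deposited log2 values, used as an alternative. Frozen tissue is what the protocol in the labels describes extracting, although the samples are cell lines.

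With limma 3.58.1 in R 4.3.3, intensities were background-corrected by normexp using the detection p-values, offset by 16, quantile-normalized and log2-transformed. Probes detected at p-value under 0.01 in at least 2 of the 4 DBTRG arrays were kept, and the brightest by their mean in DBTRG stood for a gene. Of 15872 such probes, 2870 had no single symbol in the platform annotation. Group means of 6 groups were fitted (lmFit, eBayes), and p-values are two-sided with Benjamini-Hochberg adjustment. The number of arrays limits the precision.

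The members and the 78 gene lists were chosen with earlier results of these data known, so lists are described by counts with no set test. Of 2133 list genes 1604 were tested, 395 were not detected in 2 arrays and 134 had no named probe. Genes named with values were taken from the 25 largest called changes in each direction that also passed with the 4 DBTRG arrays alone, up to 8 called members of each list with at least 3, any member of a family described as such, markers and control genes, detection switches, opposite probes and the 10 largest line differences in each direction. Promoters came from RefSeq (GRCh38.p14), and 27305 were searched on both strands. Same-numbered replicates did not deviate together (correlation 0.061 in DBTRG), so numbers were not taken as pairs. Alternatives changed the background correction, normalization, detection filter, probe choice and arrays in the fit.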

Additional observations from a re-analysis of the deposited data

Results flagged for a closer look

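The change with Y15 differed between DBTRG and U87 for the following genes by a test of the difference itself in the fit of all 12 arrays (limma, adjusted over 9922 genes); they are the 10 largest called differences in each direction. More positive in DBTRG, as log2 differences between the lines, were HMOX1 at 4.79, AVPI1 at 3.68, NDRG1 at 3.52, PPP1R15A at 3.38 and OSCAR at 3.36. Then came HES2 at 3.28, FAM167A at 3.26, FERMT1 at 3.25, INKA2 at 3.18 and MT1X at 3.06. HMOX1 changed by 4.62 ± 0.12 in DBTRG and by -0.17 ± 0.12 in U87 (adjusted p of the difference = 2.27e-07).

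More positive in U87 were SNORD3A at -3.25, SNORD3D at -3.0, RN7SK at -2.98, RIMBP3 at -2.93 and SNORD14C at -2.69. The others were TNFSF15 at -2.47, SMURF2P1-LRRC37BP1 at -2.28, PLIN5 at -2.24, TMEM106A at -2.22 and IL17RD at -2.21. SNORD3A, the U3 small nucleolar RNA, changed by 3.32 ± 0.49 in DBTRG and by 6.57 ± 0.49 in U87. The part of untailed RNAs in these differences was not tested.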

How the results depend on the processing

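The counts of genes called higher (2238) and lower (2191) stayed within 1.5 times of these values under the alternatives run, with 1 exception: the fit of the 4 DBTRG arrays alone gave 1493 higher and 1378 lower. Changes of at least 2-fold depended on the background step, with 1054 genes called in the main setting, 613 with an offset of 50, 364 with no background correction and 359 with the deposited log2 values; a larger offset compresses changes of dim genes by construction. Leaving out 1 array at a time gave 1831 to 2193 genes higher, 1746 to 2118 lower, 1052 to 1159 changed at least 2-fold, and 1465 to 2466 with a line difference. With the replicate block, whose numbers did not pair the arrays, 2316 genes were higher and 2238 lower. Of 230 called genes named in the text, 215 kept their call under every alternative and 15 lost it under at least 1. TMEM97 reversed to 0.0908 on the log2 scale when its probes were averaged, which joins probes of opposite direction. Signal over background limits the dim genes, where fold sizes rest on the offset.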
